A study of Mus musculus with 12 samples.

Results

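The genes described here encode the vacuolar proton pump (V-ATPase), the cathepsins and a few proteins of the lysosome membrane, measured in LPS-matured bone-marrow dendritic cells. A gene was taken as a member if the symbol found through its probe's accession began with Atp6v, was Atp6ap1, Atp6ap2, Lamp1, Lamp2, Cd63 or Tfeb, or was Cts followed by 1 letter, leaving out Ctsg. The rule found 46 genes among the 24232 genes named on the array, of which 25 belonged to the V-ATPase, 17 were cathepsins and 4 were Lamp1, Lamp2, Cd63 and Tfeb. Each gene was read on its probe with the highest mean, and 15 of the 46 had more than 1 probe. Atp6v0e2 had 1.

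Single-colour arrays were hybridised with RNA from dendritic cells of 4 groups of female C57BL/6 mice, with 3 arrays (A, B and C) in each. Bone marrow was cultured for 7 days with GM-CSF (2 ng/ml) and IL-4 (4 ng/ml), and the cells of every group received LPS (1 µg/ml) for 24 h. DC-Young came from untreated mice aged 2 months, DC-Dysbiotic from mice aged 2 months that drank an antibiotic cocktail, DC-Old from untreated mice aged 24 months, and DC-Old-LP from mice aged 24 months that received Lactobacillus plantarum (LP) by gavage. The study's legends give the arrays as 3 independent sets, each from a pool of 3 mice. Such cultures contain other bone-marrow cells besides dendritic cells, so that fewer cells of a type and less RNA per cell cannot be told apart.

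The V-ATPase pumps protons into endosomes and lysosomes at the cost of ATP. Its V1 sector, on the cytosolic side, hydrolyses ATP, and its V0 sector forms the path of the protons through the membrane. Cathepsins are the proteases that work in the acid interior, where in dendritic cells they trim the invariant chain and cut antigens for MHC class II. TFEB is the transcription factor that switches on many lysosomal genes together.

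Arrays A and B of all groups shared 1 slide, whereas the C arrays lay on 2 others, C of DC-Young with C of DC-Dysbiotic and C of DC-Old with C of DC-Old-LP. The share of spots well above background was 61.2% to 66.4% on A and B and 37.3% to 46% on C. Among the 32 members that were well above background on all 12 arrays, A and B of a group differed by a median of 0.09 on the log2 scale and C differed from their mean by 0.67. The C arrays stood at least 0.5 above A and B for 13 of these members and at least 0.5 below for 8. Of 10 dendritic cell markers, 9 were well above background on every array and Zbtb46 on 11. Their summed log2 level, here and below the log2 of the added intensities, ranged from 18.17 to 18.73 over the 12 arrays. The brightest markers dominate such a sum, in this list Cd74 and H2-Ab1, with means of 17.01 and 16.49 in DC-Young. None of the 10 markers passed the adjusted threshold described next (limma). At an unadjusted p of 0.05 and a log2 fold change of 0.5, Cd86 at -0.59 ± 0.177 (SE) and Cd83 at -0.54 ± 0.237 were lower in DC-Old than DC-Young (6.83% of genes). With the replicate letter as a block 1 marker was called higher and 1 lower there, beside 3.06% of all genes.

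One V-ATPase gene, Atp6v0e2, differed between the groups by a large factor, while the other 45 members stayed below the threshold in all 6 comparisons. The threshold was an adjusted p of at most 0.05 (limma, Benjamini-Hochberg over all probes) together with a log2 fold change of 0.5 or more in either direction. In DC-Old versus DC-Young, 1 of 46 members passed it, beside 0.904% of all genes tested. In DC-Dysbiotic versus DC-Young the count was 1, beside 0.475% of genes, and in DC-Old-LP versus DC-Old it was 1, beside 0.512%. DC-Old-LP versus DC-Dysbiotic also gave 1 member, beside 0.198% of genes. DC-Old-LP versus DC-Young gave 0 members, with 0% of genes passing, and DC-Old versus DC-Dysbiotic gave 0 members, with 0.00413%. Every one of these calls was Atp6v0e2.

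Taking an unadjusted p of 0.05 (limma) with the same fold, 4 members were past it in DC-Old versus DC-Young (6.83% of genes), namely Atp6v0e2, Ctsw, Ctsc and Ctsk. The same 4 genes were past it in DC-Old-LP versus DC-Old (6.67% of genes). The count was 1 in DC-Dysbiotic versus DC-Young (4.44%), 1 in DC-Old-LP versus DC-Young (0.941%) and 2 in DC-Old-LP versus DC-Dysbiotic (3.96%), where Ctsc joined Atp6v0e2. It was 0 in DC-Old versus DC-Dysbiotic (1.61%). DC-Young and DC-Old each served in several of these comparisons, so the counts do not stand on separate arrays.

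Across the 46 members the median log2 fold change was 0.00 in DC-Old versus DC-Young, -0.01 in DC-Dysbiotic versus DC-Young and 0.05 in DC-Old-LP versus DC-Old. Over all genes it was 0.00, -0.01 and 0.01. In DC-Old versus DC-Young 23 members were higher and 23 lower. For the 45 members other than Atp6v0e2 the median was -0.01, -0.02 and 0.05. A scaling by each array's 75th percentile shifted the median of all genes by up to 0.16, and the differences given here are on the quantile-normalized scale.

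**Figure D1:**
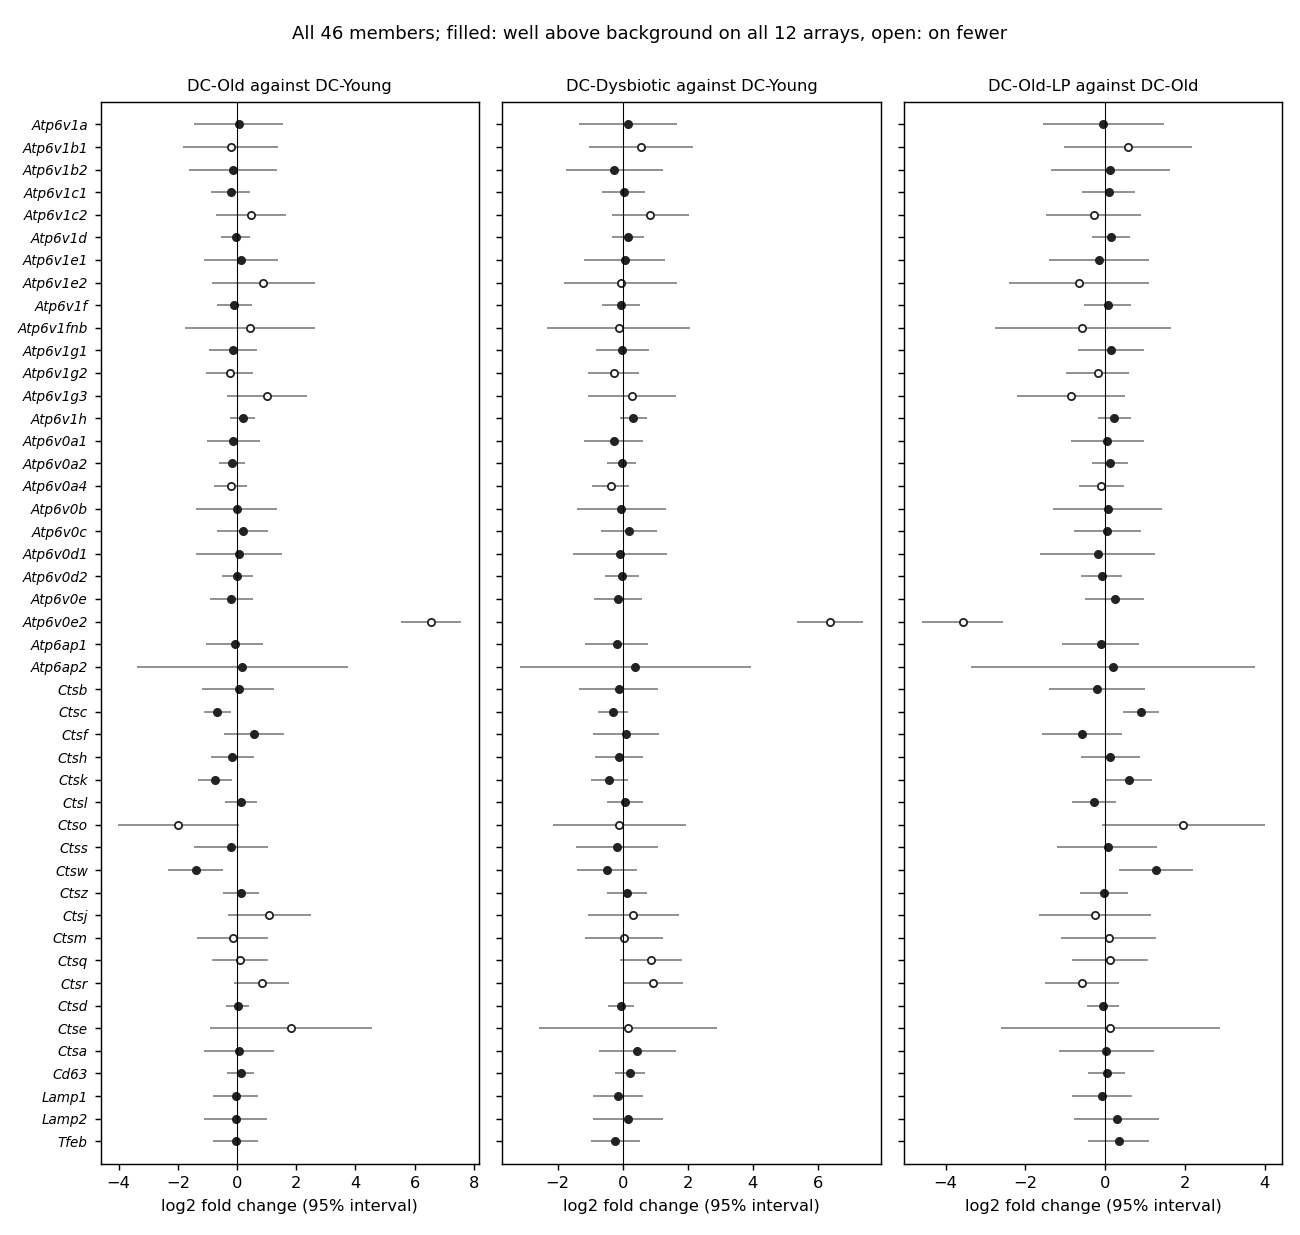
Log2 fold change of each of the 46 members (points) with its 95% interval (lines) in 3 comparisons, ordered by role from V1 subunits at the top to Tfeb at the bottom, with open points for members that were not well above background on every array. Atp6v0e2 stands at 6.56, 6.38 and -3.57, and the other 45 members lie between -1.98 and 1.96.

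Atp6v0e2 encodes an isoform of subunit e, a small membrane protein of the V0 sector, and Atp6v0e encodes the other isoform. The 250 bases before the start of each gene are shown because one of the pair changed and the other did not pass any test. Both stretches are from RefSeq (GRCm38.p6), both on the plus strand, Atp6v0e2 at chr6:48537319-48537568 and Atp6v0e at chr17:26676146-26676395, written 5′ to 3′. Capitals would mark CACGTG, the core of the motif that TFEB binds, and neither stretch holds it.
Atp6v0e2: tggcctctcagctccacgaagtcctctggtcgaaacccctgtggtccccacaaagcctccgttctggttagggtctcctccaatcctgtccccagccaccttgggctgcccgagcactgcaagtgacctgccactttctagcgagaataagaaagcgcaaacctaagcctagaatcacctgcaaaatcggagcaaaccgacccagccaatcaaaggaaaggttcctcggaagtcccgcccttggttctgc
Atp6v0e: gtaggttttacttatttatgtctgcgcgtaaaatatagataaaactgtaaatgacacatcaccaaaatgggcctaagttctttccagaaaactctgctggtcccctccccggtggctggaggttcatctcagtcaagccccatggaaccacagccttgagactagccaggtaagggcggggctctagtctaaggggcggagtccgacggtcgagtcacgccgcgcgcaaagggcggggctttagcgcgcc

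The normalized log2 intensity of Atp6v0e2 was 4.16, 4.27 and 3.31 on the DC-Young arrays A, B and C, of which C was not well above background. It was 10.52, 10.47 and 9.88 in DC-Dysbiotic and 10.81, 10.97 and 9.62 in DC-Old. In DC-Old-LP it was 6.57, 6.46 and 7.65. DC-Young was lowest on every array, DC-Old-LP lay between, and DC-Old and DC-Dysbiotic were highest, with no overlap except between these last groups. DC-Old was above DC-Dysbiotic on A and B and below it on C.

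Atp6v0e2 was thus higher in DC-Old than DC-Young by a log2 fold change of 6.56 ± 0.459 (SE), a 94.1-fold difference with a 95% interval from 46.4 to 191 (adjusted p = 0.000345, limma). Ordered by rise, it ranked 2 among the 24232 genes. DC-Dysbiotic was higher than DC-Young by 6.38 ± 0.459 (SE, adjusted p = 0.000531, limma), an 83.4-fold difference that again ranked 2. Within the slide shared by A and B the log2 differences were 6.68 and 6.29, and between the C arrays they were 6.31 and 6.57. The size depended on how the background was treated, since DC-Young lay near it. With normexp correction the log2 fold changes were 4.10 and 3.95, and from the authors' deposited log2 values 4.25 and 4.09, all past the adjusted threshold.

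The log2 fold change of DC-Old-LP versus DC-Old was -3.57 ± 0.459 (SE), an 11.9-fold lower level with a 95% interval from 5.87 to 24.2 (adjusted p = 0.0137, limma). The difference was -4.37 within the shared slide and -1.97 between the C arrays. Without DC-Old replicate A the adjusted p of this fall was 0.0764, without DC-Old replicate B it was 0.0789, without DC-Old-LP replicate A 0.0825 and without DC-Old-LP replicate B 0.0916. Fitted on these groups' 6 arrays alone it was 0.289. Against DC-Dysbiotic, the log2 fold change of DC-Old-LP was -3.40 ± 0.459 (SE), a 10.6-fold lower level (adjusted p = 0.0269, limma), and leaving out any one of 8 arrays raised the adjusted p above 0.05, to between 0.0533 and 0.172. Those were replicates A and B of DC-Young, A, B and C of DC-Dysbiotic, A of DC-Old, and A and B of DC-Old-LP.

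In DC-Old-LP the level of Atp6v0e2 remained above DC-Young on all arrays, with a log2 difference of 2.98 ± 0.459 (SE) that missed the adjusted threshold (adjusted p = 0.751, limma; unadjusted p = 6.64e-05). Without the 4 C arrays, a setting chosen after the data were seen, it was 2.30 (adjusted p = 0.00569, limma), beside 0.066% of genes. That fit rests on A and B of each group, which share 1 slide, so its p leaves out the spread between slides. DC-Old and DC-Dysbiotic differed by 0.17 with a 95% interval from -0.85 to 1.20. Atp6v0e, in contrast, ranged from 14.29 to 15.40 on all 12 arrays. Its log2 fold change was -0.19 ± 0.332 (SE) in DC-Old and -0.15 ± 0.332 in DC-Dysbiotic versus DC-Young, and 0.24 ± 0.332 in DC-Old-LP versus DC-Old, with groups that overlapped.

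**Figure D2:**
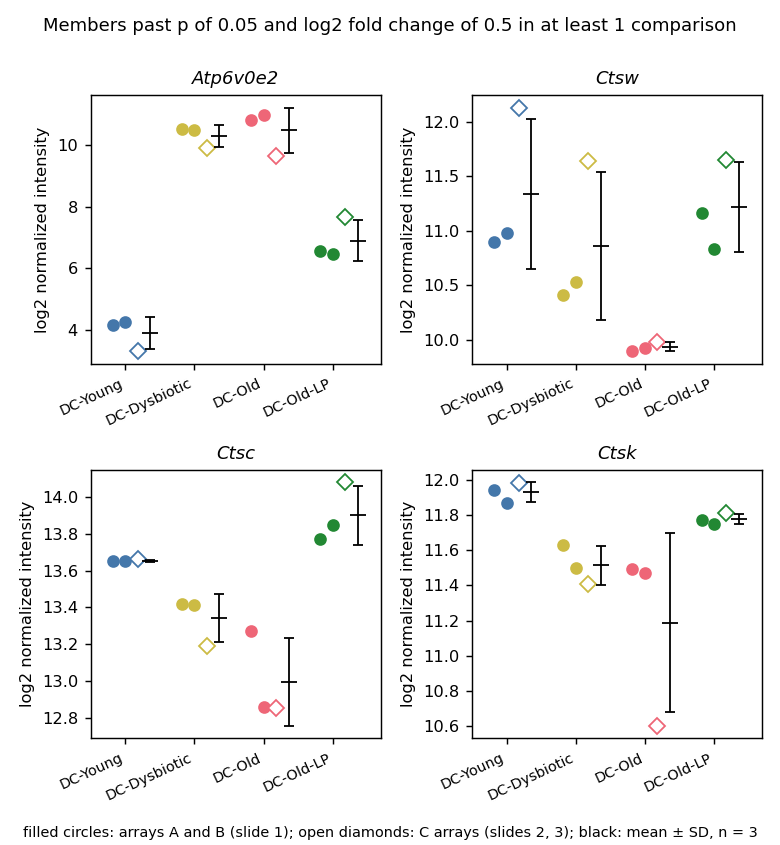
Normalized log2 intensity on each array for the 4 members past an unadjusted p of 0.05 and a log2 fold change of 0.5, by group, with filled circles for arrays A and B, open diamonds for the C arrays, and black bars for the mean ± SD (n = 3). Atp6v0e2 separates DC-Young from DC-Old and DC-Dysbiotic, and Ctsw, Ctsc and Ctsk are lowest in DC-Old.

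The genes on either side of Atp6v0e2 were read in the chromosomal order of RefSeq GRCm38.p6, 8 genes in each direction, of which 13 had a named probe. The nearest, the long non-coding RNA gene 1700026J14Rik and the protein-coding gene Lrrc61, showed no call. Lrrc61 was well above background on every array and differed by 0.24 ± 0.637 (SE) in DC-Old versus DC-Young. Rarres2, the next gene beyond Lrrc61, which encodes the secreted chemoattractant chemerin, was the only one of these neighbours past the adjusted threshold.

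Rarres2 read 3.55, 3.09 and 2.11 on the DC-Young arrays, 6.70, 6.59 and 7.73 in DC-Dysbiotic, 6.96, 6.92 and 8.58 in DC-Old, and 4.50, 3.87 and 5.82 in DC-Old-LP. The order of the groups was that of Atp6v0e2. Rarres2 was well above background on 1 of the DC-Young arrays. Its log2 fold change was 4.57 ± 0.634 (SE, adjusted p = 0.0112, limma) in DC-Old and 4.10 ± 0.634 (adjusted p = 0.0285) in DC-Dysbiotic, versus DC-Young. These values rest on the background subtraction. With normexp correction they were 1.85 (adjusted p = 0.0532) and 1.56 (adjusted p = 0.163), and from the authors' deposited log2 values 1.96 (adjusted p = 0.0413) and 1.66 (adjusted p = 0.129), so that the direction was the same and only 1 of these 4 passed. Without the 4 C arrays, a setting chosen after the data were seen, the values versus DC-Young were 3.62 in DC-Old (adjusted p = 0.000827, limma) and 3.33 in DC-Dysbiotic (adjusted p = 0.00178). Of all genes 11.4% and 7.87% passed there. In DC-Old-LP versus DC-Old the log2 fold change of Rarres2 was -2.76 ± 0.634 (adjusted p = 0.16). Without the C arrays it was -2.75 (adjusted p = 0.00243, beside 10.7% of genes). Rarres2 was looked up because of its place beside Atp6v0e2.

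**Figure D3:**
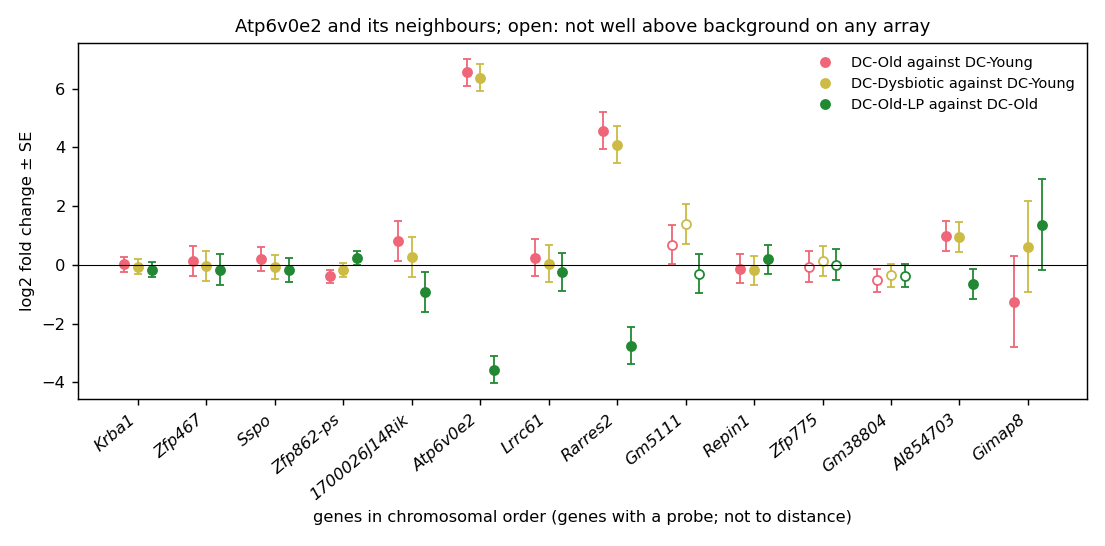
Log2 fold change ± SE of Atp6v0e2 and 13 neighbouring genes in 3 comparisons, in chromosomal order without scale, with open points for genes not well above background on any array. Atp6v0e2 and Rarres2 stand out (6.56 and 4.57 in DC-Old versus DC-Young), and Lrrc61 between them lies at 0.24.

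Some markers of other cell types, mostly from the stromal and megakaryocyte lists, were higher in DC-Old and DC-Dysbiotic than in DC-Young, as Atp6v0e2 was. The list of 10 stromal cell markers was drawn up after the values were seen, so its counts are no separate test. The adjusted threshold was passed by 0.904% of all genes in DC-Old and 0.475% in DC-Dysbiotic, versus DC-Young. Of the 10 stromal markers 5 and 4 passed it, all upward. Their summed log2 level ranged from 7.35 to 8.14 in DC-Young, from 10.40 to 11.11 in DC-Dysbiotic, from 10.61 to 11.78 in DC-Old and from 8.34 to 9.64 in DC-Old-LP. Dcn, which encodes the matrix proteoglycan decorin, rose by 4.29 ± 0.39 (SE, adjusted p = 0.00114, limma) in DC-Old. With normexp correction 3 and 2 of the 10 passed, a setting for which no share over all genes was counted. Without the 4 C arrays 7 and 7 passed, beside 11.4% of all genes in DC-Old and 7.87% in DC-Dysbiotic. Both were run after the data were seen. Among the defining markers, Col1a1 and Col3a1 were not well above background on any DC-Young array, and Pdgfra on none of the 12.

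Of 8 megakaryocyte and erythroid markers, 2 passed the adjusted threshold as higher in DC-Old and 1 in DC-Dysbiotic (0.904% and 0.475% of genes passed). With the replicate block 4 and 3 did. Versus DC-Young, the block called 397 of all 24232 genes higher in DC-Old and 270 higher in DC-Dysbiotic. Gp9, a platelet glycoprotein, was 2.36 ± 0.361 (SE, adjusted p = 0.0184, limma) higher in DC-Old than DC-Young, while the erythroid transcription factor gene Klf1 was well above background on 2 arrays. The summed log2 level of the list ranged from 15.79 to 16.18 in DC-Young, from 16.43 to 16.86 in DC-Dysbiotic, from 16.34 to 16.88 in DC-Old and from 15.90 to 16.30 in DC-Old-LP. The brightest marker of this list was Pf4, with a mean of 15.67 in DC-Young. Of 9 neutrophil markers only Camp passed the adjusted threshold versus DC-Young. It was higher by 2.71 ± 0.426 (SE, adjusted p = 0.0208, limma) in DC-Old and by 2.47 ± 0.426 (adjusted p = 0.0498) in DC-Dysbiotic. In each of these comparisons 7 of the 9 were lower. Past the unadjusted threshold among these was Mpo in DC-Old, at -1.74 ± 0.646 (SE, 6.83% of genes). The summed log2 level of the neutrophil list ranged from 14.36 to 14.61 in DC-Young, from 13.57 to 14.25 in DC-Dysbiotic, from 12.98 to 15.82 in DC-Old and from 14.62 to 15.23 in DC-Old-LP. Of 10 macrophage and 5 B cell markers 0 passed the adjusted threshold in these comparisons (limma). At the unadjusted one, 1 of each was lower in DC-Old (6.83% of genes) and 1 macrophage marker was lower in DC-Dysbiotic (4.44%). With the replicate block 1 macrophage marker passed as lower in DC-Old than DC-Young (3.06% of genes passed) and 1 as higher in DC-Old-LP than in DC-Old (2.38%). The part of such cells in the Atp6v0e2 result was not tested.

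**Figure D4:**
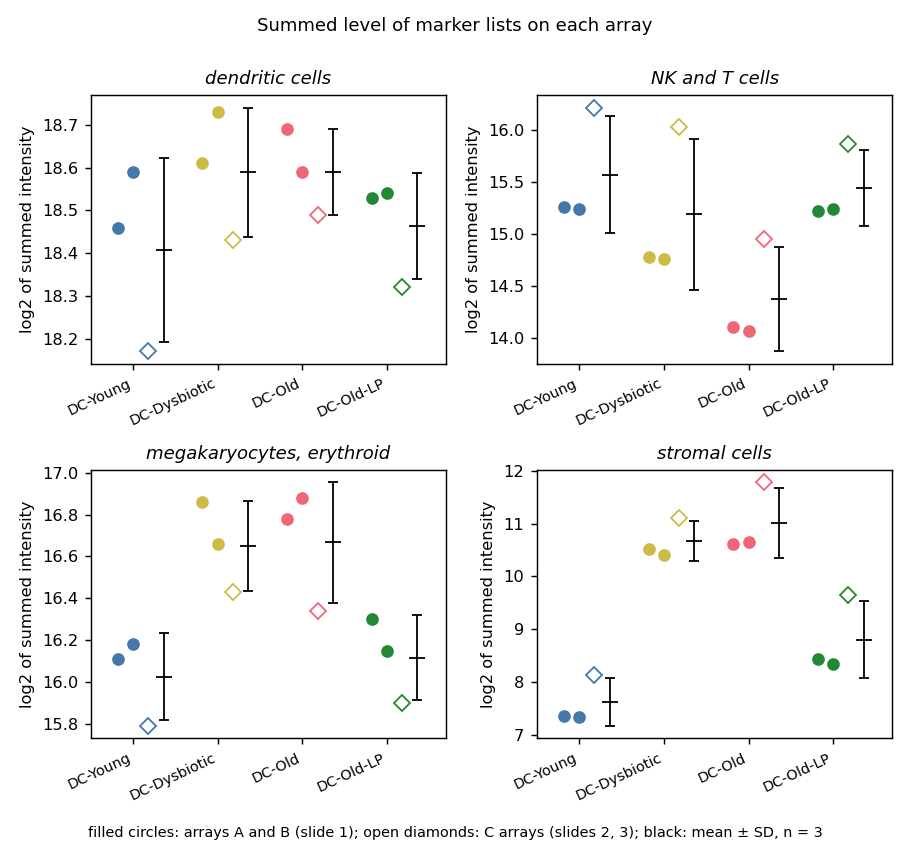
Log2 of the summed normalized intensity of 4 marker lists on each array, by group, with filled circles for arrays A and B, open diamonds for the C arrays, and black bars for the mean ± SD (n = 3). The stromal list, drawn up after the values were seen, is lowest in DC-Young (7.35 to 8.14), the natural killer and T cell list is lowest in DC-Old (14.06 to 14.95), and the dendritic cell list spans 18.17 to 18.73.

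None of the remaining subunits of the pump passed a test on its brightest probe. Apart from Atp6v0e2, 17 V-ATPase members were well above background on all arrays. Their log2 fold changes ran from -0.22 to 0.19 in DC-Old versus DC-Young, from -0.28 to 0.38 in DC-Dysbiotic versus DC-Young and from -0.19 to 0.24 in DC-Old-LP versus DC-Old. These included the catalytic subunit Atp6v1a, the proteolipid ring subunit Atp6v0c and both widely expressed forms of subunit a, Atp6v0a1 and Atp6v0a2. Of the V1 sector, 7 of 14 members were higher and 7 lower in DC-Old than DC-Young, and of the V0 sector 4 of 9 were higher.

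Precision differed from gene to gene. The 95% interval reached, on either side of the estimate, a distance that had a median of 0.79 on the log2 scale among the 32 members well above background everywhere, with a range from 0.40 to 3.56, so that for many of them a difference smaller than this median could not be detected. Atp6v1h, a regulatory subunit of V1, was among the steadiest. Its DC-Young arrays read 11.75, 11.74 and 11.78, and its DC-Dysbiotic arrays 12.09, 12.12 and 12.05. These groups did not overlap, but the log2 difference was 0.33 with a 95% interval from -0.09 to 0.75. Against DC-Young, DC-Old-LP lay at 0.42, with an interval from 0.00 to 0.84.

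Atp6v0d2, the subunit d isoform known from osteoclasts and fusing macrophages, was between 12.46 and 13.04 on all 12 arrays, with log2 fold changes of 0.01, -0.02 and -0.09 in the 3 main comparisons, each ± 0.234 (SE). Its partner isoform Atp6v0d1 likewise passed no test. Of the tissue-restricted isoforms, Atp6v1b1, Atp6v1c2 and Atp6v0a4 were not well above background on any array, nor was Atp6v1fnb, a gene named for its place beside Atp6v1f. Atp6v1g3 was well above background on 4 arrays and Atp6v1e2 on 8. Atp6v1g2, the form of subunit G known from neurons, was well above background on 10 arrays and gave -0.25 ± 0.353 (SE) in DC-Old versus DC-Young. Its second probe read 5.32, 5.39 and 6.17 in DC-Young, 4.76, 4.99 and 1.78 in DC-Old, and 5.33, 5.43 and 5.84 in DC-Old-LP. On it DC-Old lay below both groups, with log2 fold changes of -1.78 ± 0.731 (unadjusted p = 0.0347, adjusted p = 0.718, limma) versus DC-Young and, for DC-Old-LP versus DC-Old, 1.69 ± 0.731 (unadjusted p = 0.0431, adjusted p = 0.819). Within the shared slide these differences were -0.48 and 0.50.

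The accessory proteins Atp6ap1 and Atp6ap2, which take part in assembling the pump, gave log2 fold changes of -0.08 ± 0.43 (SE) and 0.18 ± 1.60 in DC-Old versus DC-Young. Atp6ap2 read 12.18, 12.21 and 8.37 in DC-Young and 12.55, 12.32 and 8.45 in DC-Old. In all 4 groups its C array was more than 3 units below A and B, so that the groups overlapped and its 95% interval reached from -3.37 to 3.74. Within the shared slide the difference was 0.24.

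Among the cathepsins, Ctsw, Ctsc and Ctsk were lowest in DC-Old and higher again in DC-Old-LP, none past the adjusted threshold in the fit reported. Counted with the replicate letter as a block, which compares arrays of the same letter, 2 members passed in DC-Old versus DC-Young (3.06% of genes) and 2 in DC-Old-LP versus DC-Old (2.38%). Beside Atp6v0e2 these were Ctsw and Ctsc, respectively.

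Ctsw is a papain-like cathepsin made chiefly by natural killer and cytotoxic T cells. It read 10.90, 10.98 and 12.13 in DC-Young, 10.41, 10.53 and 11.64 in DC-Dysbiotic, 9.90, 9.92 and 9.98 in DC-Old, and 11.16, 10.83 and 11.65 in DC-Old-LP. The DC-Old arrays were below every other array. The log2 fold change was -1.40 ± 0.417 (SE, adjusted p = 0.332, limma) in DC-Old versus DC-Young and 1.28 ± 0.417 (adjusted p = 0.497) in DC-Old-LP versus DC-Old. With the replicate block the adjusted p was 0.0342 for the first and 0.0588 for the second.

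The other probe of Ctsw gave -1.50 ± 0.323 (SE) and 1.48 ± 0.323 for the same comparisons. In these groups 9 natural killer and T cell markers were measured, of which 8 were lower in DC-Old than DC-Young and 8 higher in DC-Old-LP than in DC-Old, and 0 passed the adjusted threshold (limma). Past the unadjusted one were 5 in the first comparison (6.83% of genes), all lower, and 7 in the second (6.67%), 6 of them higher. With the replicate block 2 passed the adjusted threshold in each of these comparisons, beside 3.06% and 2.38% of genes. Gzmb, which encodes granzyme B of cytotoxic granules, gave -2.08 ± 0.563 (SE) and 1.97 ± 0.563. The summed log2 level of the list ranged from 15.24 to 16.22 in DC-Young, from 14.76 to 16.03 in DC-Dysbiotic, from 14.06 to 14.95 in DC-Old and from 15.22 to 15.87 in DC-Old-LP. The natural killer receptor gene Ncr1 was well above background on 4 arrays and Cd3g on 11. The part of such cells in the Ctsw values was not tested.

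Ctsc, or dipeptidyl peptidase 1, activates the serine proteases of granules such as granzymes. Its values were 13.65, 13.65 and 13.66 in DC-Young, 13.42, 13.41 and 13.19 in DC-Dysbiotic, 13.27, 12.86 and 12.85 in DC-Old, and 13.77, 13.85 and 14.08 in DC-Old-LP. DC-Old overlapped DC-Dysbiotic alone. The log2 fold change was -0.66 ± 0.206 (SE, adjusted p = 0.39, limma) in DC-Old versus DC-Young and 0.90 ± 0.206 (adjusted p = 0.154) in DC-Old-LP versus DC-Old. For the latter the adjusted p with the replicate block was 0.0433. The other probes of Ctsc, both assigned to a different transcript, gave -0.09 and -0.14 in the first comparison and -0.04 and 0.04 in the second, so that the probes disagreed. Of 7 mast cell and basophil markers, cells in which Ctsc is abundant, 6 were lower in DC-Old than DC-Young. In that comparison 0 passed the adjusted threshold (limma) and 1 was past the unadjusted one (6.83% of genes). In DC-Old-LP versus DC-Old all 7 were higher or level, and 1 was past the unadjusted threshold (6.67% of genes). With the replicate block 1 passed the adjusted one (2.38%). Their summed log2 level ranged from 14.42 to 15.50 in DC-Young, from 14.17 to 15.47 in DC-Dysbiotic, from 13.65 to 15.85 in DC-Old and from 14.60 to 15.26 in DC-Old-LP. Their part in the Ctsc values was not tested.

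Ctsk, the collagen-degrading cathepsin of osteoclasts, read 11.94, 11.87 and 11.98 in DC-Young, 11.63, 11.50 and 11.41 in DC-Dysbiotic, 11.49, 11.47 and 10.60 in DC-Old, and 11.77, 11.75 and 11.81 in DC-Old-LP. DC-Old lay below DC-Young and DC-Old-LP on every array, by most on C. The log2 fold changes were -0.75 ± 0.256 (SE, adjusted p = 0.492, limma) and 0.59 ± 0.256 (adjusted p = 0.818). Within the shared slide they were -0.43 and 0.28. Of 8 osteoclast markers 0 passed the adjusted threshold (limma). With the replicate block 1 passed as higher in DC-Old and 1 in DC-Dysbiotic, versus DC-Young, and 1 as lower in DC-Old-LP than in DC-Old. Of all 24232 genes, the block called 397, 270 and 291 in these directions. Past the unadjusted threshold 2 of the markers were higher in DC-Old than DC-Young (6.83% of genes), 1 of them the integrin gene Itgb3 at 1.59 ± 0.386 (SE). In DC-Dysbiotic versus DC-Young 2 were also higher (4.44%), and in DC-Old-LP versus DC-Old 2 were lower (6.67%). Itgb3 gave 1.55 and -1.33 there, each ± 0.386. Calcr was not well above background on any array. The summed log2 level of the osteoclast list was between 15.98 and 16.62 in DC-Young, 16.04 and 16.89 in DC-Dysbiotic, 16.14 and 17.06 in DC-Old, and 15.95 and 16.82 in DC-Old-LP, with the C array highest in every group.

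The cathepsins best known for antigen processing passed no test on their brightest probes. Ctss, which removes the invariant chain in dendritic cells, had a log2 fold change of -0.20 ± 0.563 (SE) in DC-Old and -0.17 ± 0.563 in DC-Dysbiotic versus DC-Young, and 0.06 ± 0.563 in DC-Old-LP versus DC-Old. Ctsd, the main aspartic protease of lysosomes, had the narrowest interval of these, from -0.38 to 0.41 around 0.02 in DC-Old versus DC-Young, and it read between 16.27 and 16.49 on all 12 arrays. Ctsb, Ctsh, Ctsl and Ctsz likewise passed none. The second probe of Ctsl, of the same accession, gave -1.16 ± 0.368 (SE, adjusted p = 0.404, limma) in DC-Old versus DC-Young, where the brightest gave 0.14 ± 0.244. It gave -0.91 ± 0.368 (unadjusted p = 0.0335, adjusted p = 1, limma) in DC-Dysbiotic versus DC-Young and 0.87 ± 0.368 (unadjusted p = 0.0398, adjusted p = 0.802) in DC-Old-LP versus DC-Old, so that the 2 probes of Ctsl disagreed.

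Without the 4 C arrays, an analysis added after the values were seen, 4 members passed in DC-Old versus DC-Young (11.4% of genes) and 6 in DC-Old-LP versus DC-Old (10.7% of genes). In the first these were Atp6v0e2, Ctsw at -1.03, Ctsf at 0.62 and Ctso at -0.59. In the second they were Atp6v0e2, Ctsw at 1.08, Ctsc at 0.74, Ctse at 1.17, Ctsa at -0.76 and Ctsf at -0.53. With all arrays Ctsf gave 0.57 ± 0.452 (SE) and -0.58 ± 0.452, and Ctsa gave 0.06 ± 0.535 and 0.03 ± 0.535. Ctsa protects beta-galactosidase and neuraminidase in the lysosome.

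Of Ctso and Ctse the C arrays decided the means. Ctso read 6.27, 6.10 and 1.90 in DC-Old, the C array not well above background, and between 6.49 and 6.91 in the other groups. DC-Old lay below all other arrays also on A and B. Its log2 fold change versus DC-Young was -1.98 ± 0.92 (SE, adjusted p = 0.866, limma). Ctse, an aspartic protease of endosomes in antigen-presenting cells, read 6.87, 7.06 and 2.93 in DC-Young, 6.93, 6.95 and 3.45 in DC-Dysbiotic, 6.75, 6.81 and 8.73 in DC-Old, and 7.96, 7.94 and 6.78 in DC-Old-LP. Its C array was lowest in 3 groups and highest in DC-Old.

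Cathepsins j, m, q and r belong to a rodent family made in the placenta. Ctsj, Ctsq and Ctsr were not well above background on any array, and Ctsm on 2. Of 7 placental trophoblast markers 4 were likewise not well above background on any array, and their summed log2 level ranged from 6.13 to 7.87 over all 12. No fold change is given in the text for these genes.

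The lysosome membrane proteins and Tfeb passed no test. Lamp1, a major glycoprotein of the lysosome membrane, read 16.28, 16.38 and 15.67 in DC-Young, 16.30, 16.19 and 15.40 in DC-Dysbiotic, 16.09, 16.35 and 15.72 in DC-Old, and 16.19, 16.18 and 15.52 in DC-Old-LP. Its C arrays were below A and B in all groups, and the groups overlapped. The log2 fold change in DC-Old versus DC-Young was -0.05 with a 95% interval from -0.80 to 0.70, and its other probe gave -0.01 ± 0.227 (SE).

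Lamp2, the partner of Lamp1 that also serves chaperone-mediated autophagy, read 13.41, 13.35 and 14.52 in DC-Young and 13.48, 13.17 and 14.47 in DC-Old, a difference of -0.05 ± 0.484 (SE). In DC-Dysbiotic it read 13.55, 13.59 and 14.60, and in DC-Old-LP 13.68, 13.67 and 14.63. The C arrays were above A and B on this probe and below them on the other, which belongs to another Lamp2 transcript and gave -0.07 ± 0.265 in DC-Old versus DC-Young. Cd63, a tetraspanin of late endosomes and exosomes, was between 15.41 and 15.91 on every array, with a log2 fold change of 0.12 ± 0.206 (SE) in DC-Old and 0.23 ± 0.206 in DC-Dysbiotic versus DC-Young. DC-Old-LP lay just above DC-Young on all arrays, by 0.16 ± 0.206.

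Tfeb read 8.54, 8.44 and 7.53 in DC-Young, 8.28, 8.08 and 7.47 in DC-Dysbiotic, 8.25, 8.37 and 7.73 in DC-Old, and 8.73, 8.45 and 8.19 in DC-Old-LP. The groups overlapped in every comparison. The log2 fold change was -0.05 ± 0.343 (SE) in DC-Old and -0.23 ± 0.343 in DC-Dysbiotic versus DC-Young, and 0.34 ± 0.343 in DC-Old-LP versus DC-Old. For DC-Old-LP versus DC-Dysbiotic it was 0.52 with a 95% interval from -0.25 to 1.28. The other probes of Tfeb gave -0.26 and -0.23 in DC-Old versus DC-Young. Their values for DC-Old-LP versus DC-Old were -0.14 and 0.06. In DC-Dysbiotic versus DC-Young they gave -0.73 ± 0.485 (SE) and -0.54 ± 0.256, the latter with groups that did not overlap (unadjusted p = 0.0623, adjusted p = 1, limma).

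**Figure D5:**
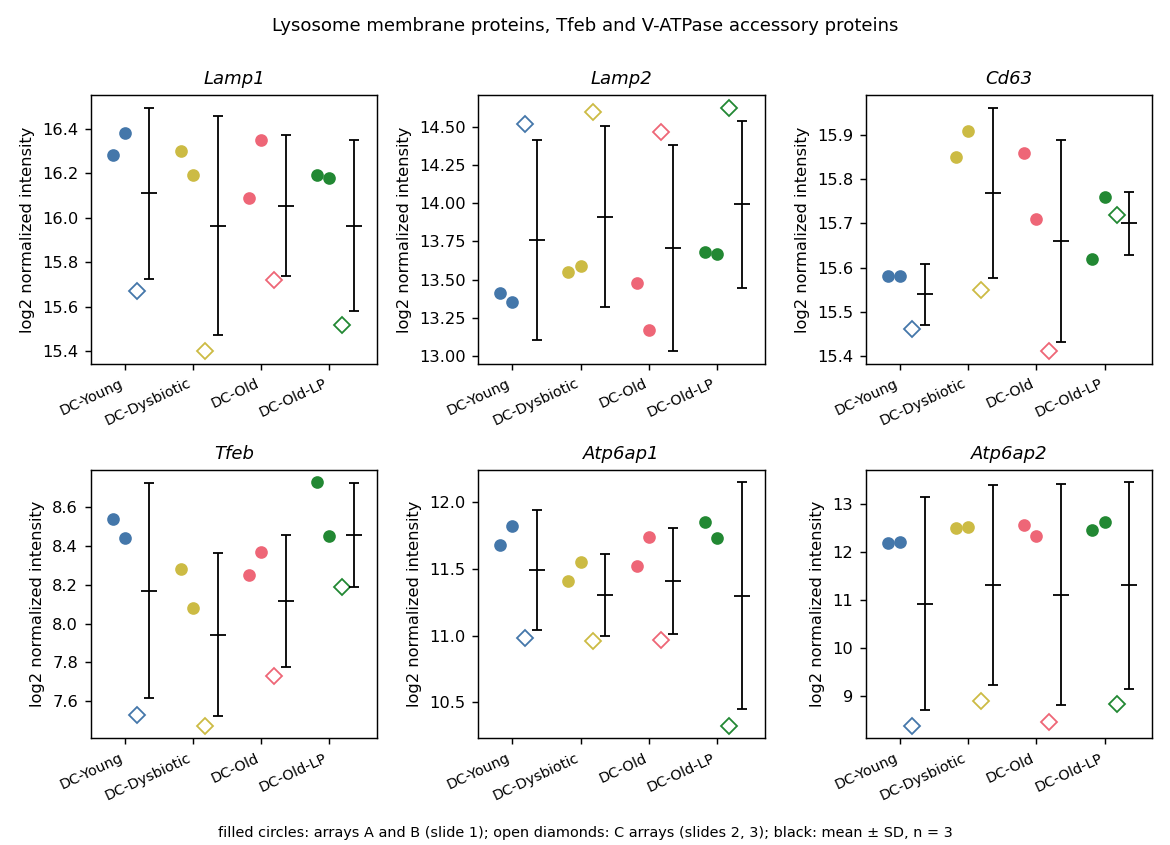
Normalized log2 intensity on each array for Lamp1, Lamp2, Cd63, Tfeb, Atp6ap1 and Atp6ap2, by group, with filled circles for arrays A and B, open diamonds for the C arrays, and black bars for the mean ± SD (n = 3). The C arrays lie apart from A and B for most of these genes, by most for Atp6ap2 (12.18, 12.21 and 8.37 in DC-Young), and the groups overlap except for Cd63 in DC-Old-LP, which lies just above DC-Young.

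TFEB binds a motif with the core CACGTG, often as TCACGTGA, which contains that core. Both read the same on either strand, and both were searched in the 250 bases before each start in the RefSeq promoters (GRCm38.p6). A promoter was at hand for 36 of the 46 members. CACGTG was found for 7 of the 36 (19.4%) and for 6.86% of 27025 genes, and TCACGTGA for 3 members (8.33%) and 0.907% of genes. The members with CACGTG were Atp6v0b, Atp6v1a, Ctsa, Ctsd, Ctsf, Ctsl and Lamp1, and those with TCACGTGA were Atp6v1a, Ctsa and Ctsd. None of them passed the adjusted threshold. Of the 4 genes past the unadjusted one, Atp6v0e2, Ctsc and Ctsk had no CACGTG in this window, and Ctsw had no entry. The promoters of Atp6v1a (minus strand, chr16:44139260-44139509) and Lamp1 (plus strand, chr8:13158911-13159160) are shown as one of the 3 members with the longer motif and as the member with the most matches, with CACGTG in capitals and 5′ to 3′ in the direction of the gene.
Atp6v1a: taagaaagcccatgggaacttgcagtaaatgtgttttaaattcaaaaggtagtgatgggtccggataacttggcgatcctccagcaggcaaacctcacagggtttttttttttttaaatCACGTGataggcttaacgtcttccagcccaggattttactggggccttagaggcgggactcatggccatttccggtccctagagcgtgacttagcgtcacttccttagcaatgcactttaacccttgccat
Lamp1: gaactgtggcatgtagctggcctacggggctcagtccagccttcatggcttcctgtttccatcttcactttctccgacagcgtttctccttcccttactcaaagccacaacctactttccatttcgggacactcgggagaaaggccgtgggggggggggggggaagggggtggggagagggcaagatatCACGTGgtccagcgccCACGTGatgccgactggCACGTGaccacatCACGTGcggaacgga

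In these letters the match of Atp6v1a begins 131 bases before the start, and the 4 matches of Lamp1 begin 61, 45, 28 and 15 bases before it. Neither gene differed between the groups beyond the spread of its arrays in any comparison. The normalized log2 intensity of Atp6v1a ran from 13.03 to 13.35 on the A and B arrays and from 14.44 to 14.90 on the C arrays.

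Other genes of the lysosome were read from 7 lists, each for 1 role. None of the genes measured passed the adjusted threshold in any comparison (limma), and the median log2 fold change of each list in DC-Old versus DC-Young lay between -0.24 and 0.11. Past the unadjusted threshold in that comparison, beside 6.83% of all genes, were 1 of 31 further hydrolases, 1 of 25 membrane and transport proteins, 1 of 20 genes of the TFEB family and its regulators and 1 of 8 cathepsin inhibitors, all lower in DC-Old. Of 9 further V-ATPase subunits and assembly factors, 6 other proteases and 6 sorting genes, 0 were past it. With the replicate block, 1 hydrolase and 1 gene of the TFEB list passed the adjusted threshold as lower in DC-Old (3.06% of genes passed), and 1 of each as higher in DC-Old-LP than in DC-Old (2.38%).

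The hydrolase was Glb1, the lysosomal beta-galactosidase. It read 12.72, 12.62 and 11.98 in DC-Young, 11.89, 11.75 and 11.58 in DC-Dysbiotic, 11.50, 11.60 and 10.97 in DC-Old, and 12.55, 12.55 and 12.43 in DC-Old-LP. DC-Old was below DC-Young and DC-Old-LP on every array. The log2 fold change was -1.08 ± 0.263 (SE, adjusted p = 0.163, limma) in DC-Old versus DC-Young and 1.15 ± 0.263 (adjusted p = 0.155) in DC-Old-LP versus DC-Old. The transporter was Abcb9, which carries peptides into lysosomes, at -1.57 ± 0.388 (SE, adjusted p = 0.176) and 1.53 ± 0.388 (adjusted p = 0.236) for the same comparisons. The regulator was Rragd, a Rag GTPase, at -0.71 ± 0.315 (SE, adjusted p = 0.808), and the inhibitor was Stfa3, a stefin, at -0.51 ± 0.21 (SE, adjusted p = 0.729).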

How the data were processed

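RNA of 12 samples was measured on single-colour mouse arrays, 3 for each of 4 groups taken from the labels. The authors deposited, for each array, Agilent Feature Extraction output (version 10.5 per the labels) with intensity values on a linear scale, background-subtracted in the processed signal, and a table of log2 values, found by comparison to be quantile-normalized log2 median signals. The processed intensity of 56605 probes was taken to log2 and quantile normalized, and 1068 readings flagged as outliers were set missing, so that a mean could rest on fewer arrays. Quantile normalization makes the arrays' distributions equal, and the background subtraction sets how low a dim probe can fall, which decides large folds. Probes were named through their accession and RefSeq (35405 probes, 24232 genes), and of several probes of a gene the one with the highest mean was used. limma 3.58.1 in R 4.3.3 fitted 1 mean per group over all 12 arrays, with Benjamini-Hochberg adjustment over all probes in each of 6 comparisons. A call needed an adjusted p of 0.05 or less together with a log2 fold change of 0.5 or more in either direction.

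Array numbers, not read depth, limit the precision. An SD is over the 3 arrays of a group. An SE is from the limma fit, whose spread is pooled over all 12 arrays and moderated across probes. The study's legends give the arrays as 3 independent sets, each from a pool of 3 mice. In the fit reported, p-values and intervals rest on the spread within groups. That spread holds the offset of the C arrays, which lay on other slides, as well as differences between pools. Same-letter arrays deviated together from their group means in all 18 pairs (correlations from 0.415 to 0.711), and A with B in all 12 pairs (0.449 to 0.57), which share a slide. C against A or B gave -0.659 to -0.466. The median was 0.554 for same-letter pairs and 0.517 for A with B, so these correlations do not show that A pairs with A or B with B. The offset of the C arrays enters all of them. A fit with the letter, taken from the labels, as a block was run beside the one reported.

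Genes were named in the text if they belonged to the rule's 46, and other genes where they passed the unadjusted threshold in a list, lay beside Atp6v0e2 or stood for a marker list. Members and lists were chosen with earlier results of these data known. Alternatives were other normalizations, background corrections, probe filters, blocks and left-out arrays. Gene order and promoters came from RefSeq GRCm38.p6. Lgmn and Trac were not measured by a named probe.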

Additional observations from a re-analysis of the deposited data

How the results depend on the processing

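In DC-Dysbiotic versus DC-Young, 1 member passed under every setting tried, and in DC-Old versus DC-Dysbiotic 0 passed under every one. In DC-Old versus DC-Young the count rose from 1 to 2 with the replicate block, to 2 with the slide as a block (3.82% of genes), to 4 with unadjusted p-values and to 4 without the 4 C arrays, and was 1 to 1 when single arrays were left out. In DC-Old-LP versus DC-Old it went from 1 to 2 with the replicate block, 3 with the slide block (4.48% of genes), 0 on the arrays of these groups alone, 4 unadjusted and 6 without the C arrays, and was 0 to 1 when single arrays were left out. In DC-Old-LP versus DC-Young it went from 0 to 1 unadjusted and to 1 without the C arrays (0.066% of genes). In DC-Old-LP versus DC-Dysbiotic it went from 1 to 0 with scaling by the 75th percentile, 0 on these groups alone, 2 unadjusted and 2 without the C arrays (6.55% of genes), and was 0 to 1 when single arrays were left out. Leaving out the C arrays was chosen after seeing the data, and the p-values then rest on arrays of 1 slide. The replicate block changed no other call of a member. The cause of these shifts was not tested.

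Over 24 settings the log2 fold change of Atp6v0e2 ran from 4.10 to 6.98 in DC-Old and from 3.95 to 6.59 in DC-Dysbiotic, versus DC-Young, past the adjusted threshold in all. In DC-Old-LP versus DC-Old it ran from -4.37 to -2.81 and missed the threshold in 5. Of the single-gene results over these settings 256 kept direction and side, 17 passed where they had not, 15 no longer passed and 0 reversed. Scaling by the 75th percentile put 60.8% of all genes higher in DC-Old than DC-Young, against 50.3% as reported, and 37.8% against 48.4% in DC-Dysbiotic. For DC-Old-LP versus DC-Dysbiotic the shares were 65.6% and 54.3%, and for DC-Old versus DC-Dysbiotic 66.4% and 50%. Signal limits the 7 members that were not well above background on any array.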
